A study of Mus musculus with 8 samples.

Results

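Testes of male mice injected with lipopolysaccharide (LPS) and then with dehydroepiandrosterone (DHEA) were compared with testes of male mice that received vehicle. The comparison uses 4 of the 8 RNA-seq libraries of the series, the 2 whose title gives the group LPS+DHEA and the 2 whose title gives CTRL, and asks which part of the transcript response to LPS was still measurable after DHEA. All animals are labelled WT and male. CTRL animals received phosphate-buffered saline. LPS+DHEA animals received 1 dose of LPS into the peritoneal cavity and 1 dose of DHEA by the same route 6 h later. The other groups, LPS alone and LPS followed by DHEA with the agent Nb23-bi (LPS+DHEA+Nb), have 2 libraries each. The design holds no group with DHEA and without LPS, so a difference between LPS+DHEA and CTRL cannot be assigned to LPS or to DHEA, and the second injection cannot be told apart from DHEA. The sources used here do not give doses, age, strain or the time of tissue collection. They also do not say whether the 2 libraries of 1 group are from different animals, so standard errors and p-values reflect library-to-library spread, which may be technical.

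LPS, a glycolipid of the outer membrane of Gram-negative bacteria, is sensed by Toll-like receptor 4 (TLR4) with its co-receptors CD14 and MD-2. The receptor activates NF-kB and interferon regulatory factors, which induce cytokines, and these in turn act through STAT3 and C/EBP factors on acute phase genes. In the testis the interstitium holds resident macrophages, vessels and Leydig cells, which convert cholesterol to androgens through Star, Cyp11a1, Hsd3b1 and Cyp17a1, while germ cells lie in tubules behind Sertoli cells and peritubular myoid cells. DHEA is a steroid that such cells can convert to androgens.

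The libraries held 61.3 to 64.5 M counts each, with at least 1 count in 30142 to 30626 genes. Mitochondrially encoded transcripts took 0.89 to 1.23% of the counts and the 10 most abundant genes 3.37 to 3.68%. Levels are in CPM, which is counts scaled to library depth, and log2 fold changes, their standard errors (SE) and p-values adjusted by the Benjamini-Hochberg method come from a quasi-likelihood model in edgeR fitted to all 8 libraries. The tissue label was checked against markers. Tnp1, which encodes a transition protein of condensing spermatids, stood at 1973 and 1949 CPM in CTRL and 1712 and 1846 CPM in LPS+DHEA, and Prm1, a protamine gene, at 2912 and 2937 against 2423 and 2867 CPM. Of 17 epididymis genes, 6 had 0 counts in all 4 libraries and 13 were too low to be tested. The extraction protocol in the labels names islets where the tissue label names testis, and the markers are those of testis.

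Of 26414 genes tested, 36 rose (0.136%) and 4 fell (0.0151%) in LPS+DHEA against CTRL at an adjusted p under 0.05, which is 0.151% of the genes. Of the 36, 7 were on the acute phase and injury list. Those that fell were Ncoa4, Ephx1, Sult1e1 and a pseudogene. The unadjusted p from edgeR was under 0.05 in 1512 genes, where 1321 would be expected with no difference at all. The median log2 fold change of all genes tested was 0.01, and 51.2% of the fold changes were positive. All 40 called genes had both LPS+DHEA libraries beyond both CTRL libraries. Among all genes tested, both LPS+DHEA libraries lay above both CTRL libraries in 18.6% and below both in 16.6%.

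**Figure D1:**
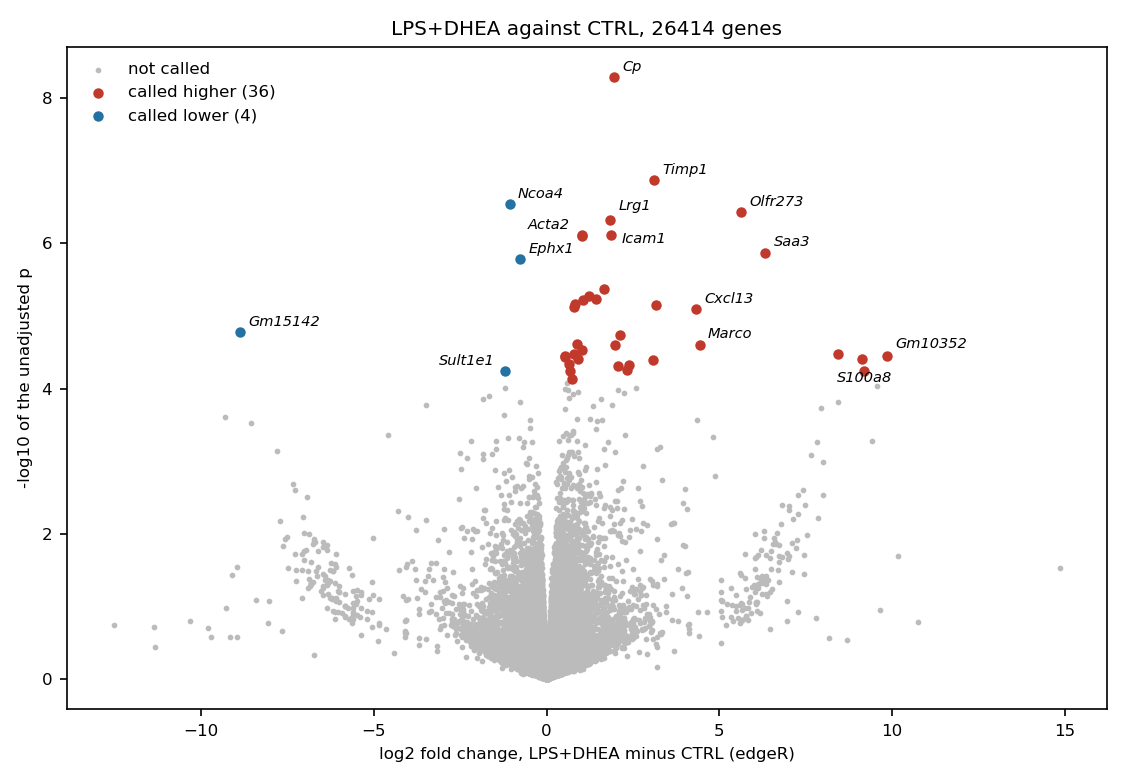
Log2 fold change of LPS+DHEA against CTRL (x axis) and -log10 of the unadjusted p from edgeR (y axis) for 26414 genes, with the 36 genes called higher in red and the 4 called lower in blue. Cp has the smallest p; the place on the x axis of genes with 0 counts in 1 group, such as S100a8 and Gm15142, is set in part by the prior count in the fit.

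The acute phase list, genes that respond to infection and tissue injury, had 25 of 30 members with enough counts to be tested. Of these, 7 rose, none fell and 22 had a positive fold change. The list's median log2 fold change was 1.44, beside 0.01 for all genes tested. Both LPS+DHEA libraries lay above both CTRL libraries in 19 of the 25 (76.0%), beside 18.6% of all genes tested. The summed level of the list was 199.8 and 203 CPM in CTRL and 538 and 555 CPM in LPS+DHEA. The direction of this list in the LPS-treated libraries was known when it was written, so it is no independent evidence.

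Saa3 (chr7:46711998-46715700), a serum amyloid A gene expressed outside the liver in inflamed tissue, stood at 0.895 and 1.48 CPM in CTRL and at 93.9 and 98.1 CPM in LPS+DHEA. The groups were far apart, 80.4-fold by the fitted log2 fold change of 6.33 (SE 0.33, adjusted p = 0.00392). Its neighbour Saa1 (chr7:46740497-46742980), whose product is a circulating acute phase protein, had 28 and 44 counts in CTRL against 148 and 151 in LPS+DHEA (log2 fold change 2.07 with SE 0.32, adjusted p = 0.0367). Serum amyloid A genes are close copies, and reads shared between them could have been assigned to either gene. Serpina3n, an inhibitor of serine proteases, stood at 4.7 and 6.91 CPM in CTRL and 54.2 and 50.2 CPM in LPS+DHEA (log2 fold change 3.17 with SE 0.26, adjusted p = 0.0115). Timp1 (chrX:20870166-20874735), an inhibitor of matrix metalloproteases, went from 0.863 and 1.09 CPM to 7.5 and 9.5 CPM (log2 fold change 3.12 with SE 0.26, adjusted p = 0.00176). In both protease inhibitor genes the lowest LPS+DHEA library was several times above the highest CTRL library. Lrg1, which encodes a leucine-rich glycoprotein that acts on vessels, went from 4.33 and 5 CPM to 17.4 and 16.3 CPM (log2 fold change 1.85 with SE 0.17, adjusted p = 0.00253).

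Cp and Lcn2 belong both to the acute phase and to the handling of metals. Cp (chr3:19957054-20009145), which encodes the copper-carrying ferroxidase ceruloplasmin, stood at 8.21 and 9.03 CPM in CTRL and 32.2 and 34.6 CPM in LPS+DHEA. It had the smallest p of all genes (log2 fold change 1.95 with SE 0.12, adjusted p = 0.000135). Lcn2 (chr2:32384633-32388252), whose product binds bacterial siderophores and so withholds iron, went from 127 and 125 CPM to 224 and 250.1 CPM (log2 fold change 0.91 with SE 0.12, adjusted p = 0.0331). Its CTRL level was already high and the fold change was the smallest of the 7 acute phase genes that rose. The call of Lcn2 ended without any 1 of the CTRL, LPS or LPS+DHEA libraries (log2 fold change 0.83 to 0.99, adjusted p = 0.0743 to 0.243), as did that of Saa1 (1.79 to 2.41, adjusted p = 0.0515 to 0.161). Serpina3n lost its call without LPS+DHEA replicate 1 or 2 (3.11 to 3.22, adjusted p = 0.058 to 0.0947). Saa3, Timp1, Lrg1 and Cp were called without each of the 8 libraries. Among members that did not pass, Il1rn, the antagonist of the interleukin-1 receptor, had 0 CPM in both CTRL libraries and 0.751 and 0.622 CPM in LPS+DHEA (adjusted p = 0.0732). It was called without either LPS+DHEA+Nb library (0.0186 and 0.0238), with no filter on low counts (0.0111) and with DESeq2 (0.00128). Il1rn and the haptoglobin gene Hp were singled out after their values were seen. Hp stood at 0.847 and 5.25 CPM in CTRL and 16.1 and 10.1 CPM in LPS+DHEA (adjusted p = 0.926), groups that do not overlap but whose CTRL libraries differ widely.

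**Figure D2:**
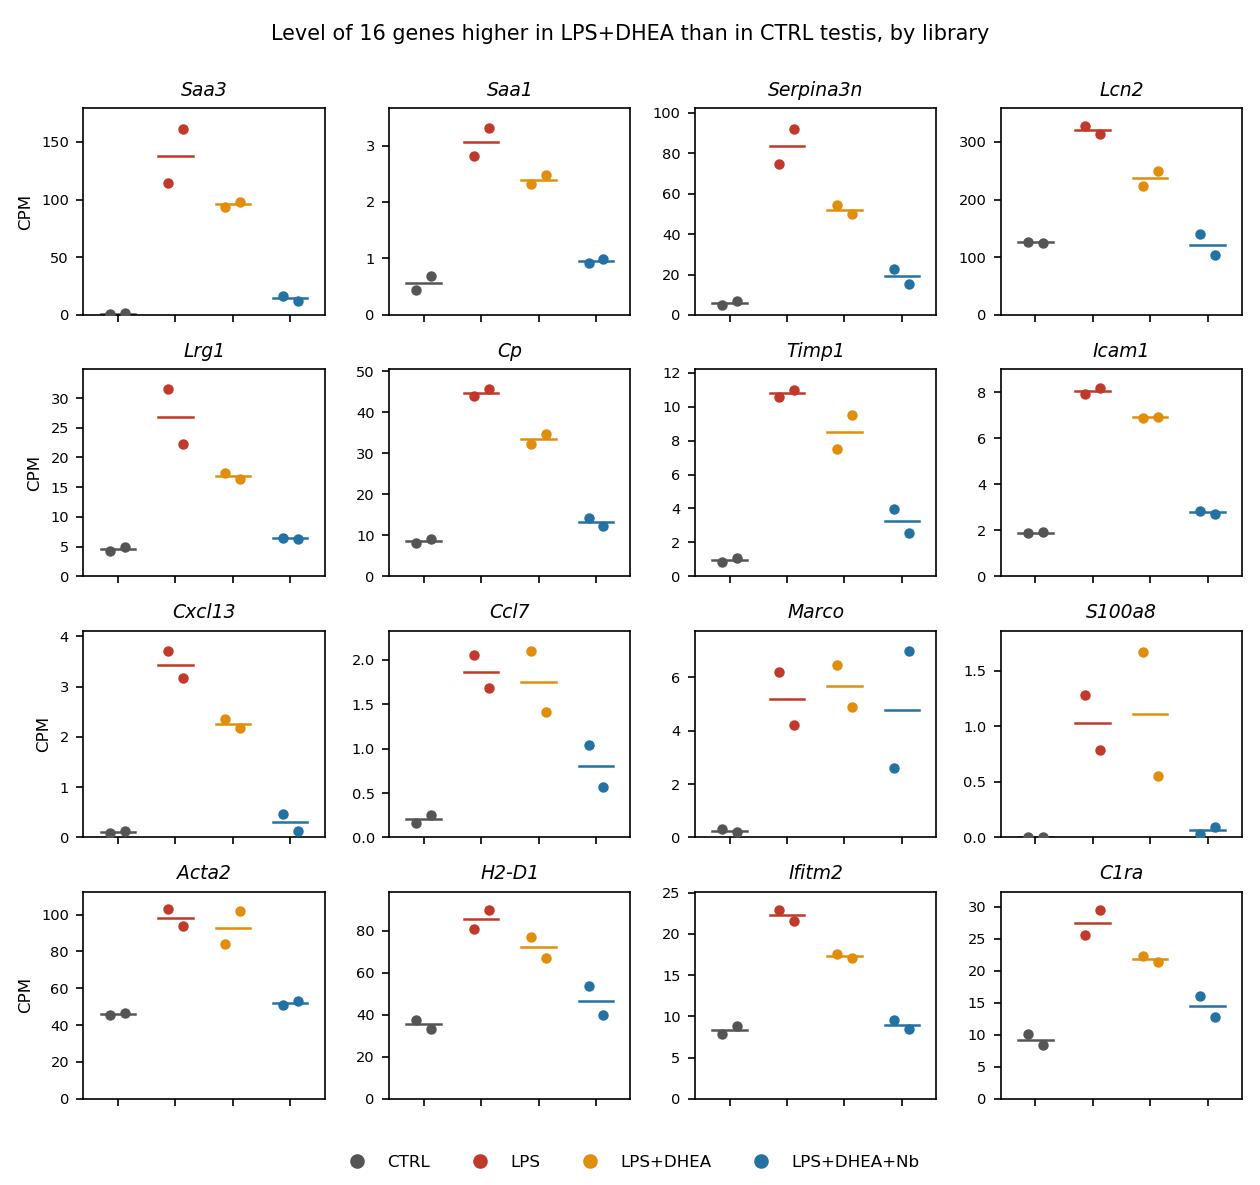
Level in CPM (y axis, from 0, own scale in each panel) of 16 genes called higher in LPS+DHEA than in CTRL, with each library as a point and the group mean as a line for the 4 groups, 2 libraries each. In every panel both LPS+DHEA points lie above both CTRL points, from 0.895 and 1.48 CPM to 93.9 and 98.1 CPM in Saa3 and from 127 and 125 CPM to 224 and 250.1 CPM in Lcn2.

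The promoter windows of the genes that rose were searched for motifs of the factors named above. RefSeq windows of 300 bases on GRCm38.p6 were at hand for 28 of the 36 genes that rose, all 4 that fell and 16078 of the genes tested. Each covers 250 bases before and 50 after a RefSeq start, the one nearest to the annotated start of the gene. Both strands were searched for the NF-kB consensus, for the STAT motif TTCNNNGAA and for the C/EBP motif TTGCNNAA. The C/EBP motif was in 5 of 28 windows (17.9%), those of Saa3, Saa1, Lcn2, Cxcl13 and C1ra, beside 8.82% of the 16078. The STAT motif was also in 5 of 28 (17.9%, beside 7.31%), those of Icam1, C1ra, Fpr2, Nol8 and 4933406F09Rik. The NF-kB consensus was in 3 of 28 (10.7%, beside 4.96%), those of H2-D1, Tmem176a and Tmem176b. These shares rest on few windows and were not tested, and a match is a string of letters and not a shown binding site. Among the genes that fell, the C/EBP motif was in 1 of 4 windows (25%), that of Gm15142.

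The windows of 5 genes are printed because they hold the matches in the acute phase, complement and antigen presentation genes described here. They were chosen after the matches were seen. Each is written 5′ to 3′ on the strand of the gene, with the matched letters in capitals. Saa3 (chr7:46715627-46715926, minus strand), Saa1 (chr7:46742931-46743230, minus strand) and Lcn2 (chr2:32387690-32387989, minus strand) each hold 1 C/EBP match. It starts 99 bases before the RefSeq start in Saa3 and 182 bases before it in Saa1. C1ra (chr6:124512371-124512670, plus strand) holds a C/EBP and a STAT match that both lie after the RefSeq start. H2-D1 (chr17:35262844-35263143, plus strand) holds 2 NF-kB matches that overlap each other. The windows of Lcn2 and H2-D1 lie inside the annotated positions of these genes, and most of the C1ra window lies inside those of C1ra.
Saa3: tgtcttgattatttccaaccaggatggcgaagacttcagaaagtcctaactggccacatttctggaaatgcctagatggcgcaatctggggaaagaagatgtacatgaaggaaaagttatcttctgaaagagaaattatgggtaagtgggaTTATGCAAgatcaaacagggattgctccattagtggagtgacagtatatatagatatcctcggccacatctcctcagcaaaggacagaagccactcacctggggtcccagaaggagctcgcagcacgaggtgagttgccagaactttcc
Saa1: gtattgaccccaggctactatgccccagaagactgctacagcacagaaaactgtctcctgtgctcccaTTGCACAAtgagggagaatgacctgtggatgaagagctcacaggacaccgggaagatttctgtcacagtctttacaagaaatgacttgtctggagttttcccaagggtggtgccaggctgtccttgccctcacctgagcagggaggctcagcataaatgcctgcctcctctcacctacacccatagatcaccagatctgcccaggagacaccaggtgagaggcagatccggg
Lcn2: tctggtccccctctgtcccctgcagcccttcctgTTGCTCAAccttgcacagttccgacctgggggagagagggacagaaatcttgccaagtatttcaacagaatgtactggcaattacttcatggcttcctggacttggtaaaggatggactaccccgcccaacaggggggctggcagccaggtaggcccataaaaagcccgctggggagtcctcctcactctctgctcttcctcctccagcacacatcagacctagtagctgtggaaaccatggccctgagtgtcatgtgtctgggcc
C1ra: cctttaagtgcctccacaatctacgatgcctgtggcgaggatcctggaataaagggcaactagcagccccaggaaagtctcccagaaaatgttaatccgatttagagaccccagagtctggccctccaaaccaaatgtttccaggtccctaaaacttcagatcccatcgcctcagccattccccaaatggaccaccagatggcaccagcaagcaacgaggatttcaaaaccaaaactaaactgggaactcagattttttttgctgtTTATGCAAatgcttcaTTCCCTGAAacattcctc
H2-D1: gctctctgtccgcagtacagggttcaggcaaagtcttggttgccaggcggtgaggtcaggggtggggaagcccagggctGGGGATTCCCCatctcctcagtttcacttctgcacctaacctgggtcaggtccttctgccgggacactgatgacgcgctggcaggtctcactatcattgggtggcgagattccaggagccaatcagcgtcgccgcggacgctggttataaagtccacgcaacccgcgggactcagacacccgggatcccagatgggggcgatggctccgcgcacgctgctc

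Genes of LPS sensing and NF-kB signalling did not pass the test in edgeR. Of 27 TLR4 signalling components none was called in edgeR (5 had an unadjusted p under 0.05), 18 had a positive fold change and the median was 0.13. Tlr4 itself had 20 and 19 counts in CTRL against 28 and 20 in LPS+DHEA (log2 fold change 0.31, 95% interval -1.18 to 1.81, adjusted p = 0.998). The interval is wide in both directions. Tlr2, a receptor of bacterial lipoproteins, had 32 and 21 counts in CTRL against 124 and 98 in LPS+DHEA (log2 fold change 2.07, adjusted p = 0.0585), and the co-receptor gene Cd14 stood at 1.97 and 1.53 against 5.32 and 3.11 CPM (adjusted p = 0.376). The groups did not overlap in either gene. Tlr2 was called with DESeq2 (adjusted p = 0.00347) and with no filter on low counts (0.0191), and Tlr1 without CTRL replicate 1 (0.022). Of 25 NF-kB subunits and feedback inhibitors none was called in edgeR (9 had an unadjusted p under 0.05), 21 had a positive fold change and the median was 0.33. Tnip1, which binds the NF-kB inhibitor A20, stood at 9.06 and 7.56 CPM in CTRL and 14.6 and 12.4 CPM in LPS+DHEA (log2 fold change 0.7, adjusted p = 0.19). Its relative Tnip3 had 0 counts in both CTRL libraries against 39 and 25 in LPS+DHEA, at least 10.7-fold higher against a floor of 3 counts per library, and did not pass (adjusted p = 0.224). DESeq2 called both (adjusted p = 0.0266 for Tnip1 and 0.00806 for Tnip3), and Tnip3 was also called without LPS replicate 2 (0.0487). Cytokine receptors and STAT3 signalling had no call in edgeR among 37 genes (12 had an unadjusted p under 0.05), 30 positive fold changes and a median of 0.28. Socs3, the feedback inhibitor induced by STAT3, had 80 and 58 counts in CTRL against 234 and 183 in LPS+DHEA (log2 fold change 1.61, adjusted p = 0.105). It was called with DESeq2 (adjusted p = 0.00308) and with no filter on low counts (0.0242). Ifngr1, a chain of the interferon gamma receptor, stood at 6.65 and 3.47 CPM in CTRL and 10.3 and 12 CPM in LPS+DHEA (log2 fold change 1.14, adjusted p = 0.251), and was called with DESeq2 (0.00491) and without CTRL replicate 1 (0.0186). DESeq2 called 3 genes of this list, the other being Ackr1, and limma-voom called no gene of these 3 lists.

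The chemokine genes Cxcl13 and Ccl7 rose. Of the early cytokines, Tnf and Il6 had few counts in every library and Il1b did not pass. Of 33 cytokine and chemokine genes 27 could be tested, 2 rose, none fell and 24 had a positive fold change, with a median of 0.78. DESeq2 called 8 of the list, of which Ccl8 was lower in LPS+DHEA (log2 fold change -3.52, adjusted p = 0.0042), and limma-voom called none. Both LPS+DHEA libraries lay above both CTRL libraries in 18 of the 27 (66.7%), beside 18.6% of all genes tested. Cxcl13 (chr5:95956951-95961068), which attracts B cells, had 6 and 8 counts in CTRL against 150 and 133 in LPS+DHEA (log2 fold change 4.33 with SE 0.55, adjusted p = 0.0119). Ccl7, which attracts monocytes, had 10 and 16 counts in CTRL against 134 and 86 in LPS+DHEA (log2 fold change 3.08 with SE 0.46, adjusted p = 0.0331). Both genes were near 0 in vehicle testis. Cxcl13 lost its call without either CTRL library or LPS+DHEA replicate 1 (4.15 to 4.53, adjusted p = 0.0553 to 0.0845), and Ccl7 without any 1 of the 4 CTRL and LPS+DHEA libraries (2.76 to 3.44, adjusted p = 0.0532 to 0.168). Il1b, the interleukin-1 beta gene, had 46 and 71 counts in CTRL against 123 and 65 in LPS+DHEA, so the groups overlap (log2 fold change 0.69, 95% interval -0.39 to 1.78, adjusted p = 0.959). Tnf had 0 and 10 counts in CTRL against 14 and 17 in LPS+DHEA (adjusted p = 0.968), and Cxcl10, an interferon-induced chemokine, 42 and 32 against 79 and 46 (log2 fold change 0.76, adjusted p = 0.917). Il6 had 0 counts in both CTRL libraries against 9 and 0 in LPS+DHEA, too few to be tested. The counts of Tnf and Il6 are too low for a moderate difference to be detectable. In Il1b (SE 0.49) and Cxcl10 (SE 0.42) the 2 LPS+DHEA libraries differed from each other, and a moderate difference could be missed.

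The genes of several receptors and surface proteins, most of them on none of the marker lists, rose from low levels. In bulk tissue a change in the number of cells of a type and a change in RNA per cell cannot be told apart. Fpr1 and Fpr2, neighbouring receptors of formyl peptides on phagocytes, had 0 counts in both CTRL libraries. In LPS+DHEA, Fpr1 had 92 and 52 counts and Fpr2 50 and 36, at least 24.1-fold and at least 14.5-fold higher against the floor of 3 counts per library (adjusted p = 0.0385 and 0.0331). S100a8 (chr3:90668978-90670035), a calcium-binding subunit of calprotectin, also had 0 counts in CTRL, and 107 and 34 in LPS+DHEA, at least 23.5-fold higher (adjusted p = 0.0331). In all 3 genes LPS+DHEA replicate 1 held more counts than replicate 2. Marco, a scavenger receptor of macrophages, stood at 0.304 and 0.219 CPM in CTRL and 6.48 and 4.89 CPM in LPS+DHEA (log2 fold change 4.43 with SE 0.53, adjusted p = 0.0289). Pirb, an inhibitory receptor that binds MHC class I, had 38 and 30 counts against 225 and 113 (log2 fold change 2.32 with SE 0.36, adjusted p = 0.0385). Ms4a6d, a membrane protein gene of the MS4A family, had 55 and 36 counts against 214 and 179 (2.12, SE 0.29, adjusted p = 0.0238), and Cd38, which encodes an ectoenzyme that consumes NAD, had 32 and 30 against 186 and 136 (2.38, SE 0.37, adjusted p = 0.0364). Every one of these genes had both LPS+DHEA libraries well above both CTRL libraries.

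The calls of these genes depended on single libraries. Those of Cd38 and Fpr2 ended without any 1 of the CTRL and LPS+DHEA libraries (adjusted p = 0.058 to 0.203 for Cd38 and 0.0546 to 0.112 for Fpr2). Marco lost its call without those 4 and without LPS replicate 2 (adjusted p = 0.05 to 0.248), and Fpr1 without any 1 CTRL, LPS or LPS+DHEA library (adjusted p = 0.05 to 0.159). Ms4a6d lost its call without CTRL replicate 2 or either LPS+DHEA library (adjusted p = 0.0545 to 0.116). S100a8 lost it without either CTRL library or LPS+DHEA replicate 1 (adjusted p = 0.11 to 0.133), and Pirb without either CTRL library, either LPS library or LPS+DHEA replicate 1 (adjusted p = 0.05 to 0.225). Fpr2 shares annotated exons with Fpr3 on the same strand, but Fpr3 had no counts.

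Marker lists of leukocytes were set beside these genes. Of 19 neutrophil markers 13 could be tested, 2 rose (S100a8 and Lcn2), none fell and 12 had a positive fold change. The median was 3.61, or 2.5 with the 3 members that had 0 counts in CTRL at their bound. Their summed level was 134 and 132 CPM in CTRL and 239.6 and 262 CPM in LPS+DHEA, most of it Lcn2. In edgeR 7 of the 13 had an unadjusted p under 0.05. DESeq2 also called S100a9 (log2 fold change 4.93, adjusted p = 0.000289) and Clec4e (adjusted p = 3.01e-05), while limma-voom called only Lcn2. Ly6g, a defining neutrophil surface protein, had 0 counts in all 4 libraries, and Mpo, the gene of granule myeloperoxidase, stood at 3.2 and 3.08 against 2.5 and 3.35 CPM. Of 26 monocyte and macrophage markers 1 rose in edgeR (Marco) and 13 had an unadjusted p under 0.05. A positive fold change was found in 13, with a median of -0.05. Both LPS+DHEA libraries lay above both CTRL libraries in 10 (38.5%) and below both in 9 (34.6%), so members lay in both directions. The shares over all genes tested were 18.6% and 16.6%. DESeq2 also called Itgam (log2 fold change 4, adjusted p = 9.76e-05) and Lyz2 (0.63, adjusted p = 0.0206), and limma-voom called none. Without CTRL replicate 2, H2-Aa was at -2.91. The summed level of the list was 222 and 201 CPM in CTRL and 233 and 203 CPM in LPS+DHEA, so the groups overlap. Of 14 lymphocyte markers tested none was called in edgeR (2 had an unadjusted p under 0.05) and 5 had a positive fold change. Ighm, the heavy chain gene of immunoglobulin M, had 136 and 113 counts in CTRL against 10 and 0 in LPS+DHEA (log2 fold change -4.6, 95% interval -6.57 to -2.63, adjusted p = 0.147). It was called without LPS+DHEA replicate 1, which leaves a library with 0 counts (adjusted p = 0.0204), with counts divided by 4 (0.0232) and with DESeq2 (1.07e-05). The part of leukocyte numbers in the genes that rose was not tested.

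On vessel and interstitial cell surfaces, Icam1, which encodes the adhesion molecule that leukocyte integrins bind, stood at 1.87 and 1.92 CPM in CTRL and 6.9 and 6.93 CPM in LPS+DHEA. The libraries of each group were close together, and the fold change was 3.65 (log2 fold change 1.87 with SE 0.18, adjusted p = 0.00262). Icam1 and Lrg1 were the 2 of 20 adhesion and vessel activation genes that rose in edgeR or with limma-voom. DESeq2 called 4 of the list, the others being Vcam1 (log2 fold change 0.63, adjusted p = 0.00128) and Ackr1. The list had 14 positive fold changes and a median of 0.13. Of 18 endothelial markers none was called in edgeR, with DESeq2 or with limma-voom (2 had an unadjusted p under 0.05 in edgeR), 14 had a positive fold change, and the summed level was 85.3 and 81.8 CPM in CTRL and 99.1 and 91 CPM in LPS+DHEA. Pecam1, a junction protein of endothelium, stood at 3.69 and 2.31 against 4.54 and 5.41 CPM (log2 fold change 0.73, adjusted p = 0.776). Pdpn, which encodes the membrane mucin podoplanin, went from 3.31 and 3.77 CPM to 10 and 9.18 CPM (log2 fold change 1.44 with SE 0.18, adjusted p = 0.0113), and lost its call without CTRL replicate 1 or LPS+DHEA replicate 1 (1.35 to 1.37, adjusted p = 0.0622 to 0.0672).

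Antigen presentation genes leaned upward with 1 call. Of 24 MHC class I and antigen processing genes 1 rose, 21 had a positive fold change, and the median was 0.61. Both LPS+DHEA libraries lay above both CTRL libraries in 17 of the 24 (70.8%), beside 18.6% of all genes tested. H2-D1 (chr17:35262730-35267499), which encodes a classical class I heavy chain, stood at 37.7 and 33.2 CPM in CTRL and 77.1 and 67.2 CPM in LPS+DHEA (log2 fold change 1.02 with SE 0.14, adjusted p = 0.0319). B2m, the shared light chain, stood at 42.4 and 36.7 against 79.2 and 70.9 CPM (log2 fold change 0.92, 95% interval 0.59 to 1.25, adjusted p = 0.0614). H2-K1, another heavy chain gene, was at 0.63 on the log2 scale (adjusted p = 0.0585). It was called under 6 alternatives, among them DESeq2 (6.1e-05) and no filter on low counts (0.00743). Class I heavy chain genes are near-identical in places, so their separate values are uncertain. H2-D1 lost its call without any 1 of the CTRL and LPS+DHEA libraries (0.92 to 1.12, adjusted p = 0.0546 to 0.189), while B2m was called without any 1 LPS or LPS+DHEA+Nb library (adjusted p = 0.0178 to 0.0196), with no filter on low counts (0.0356), with only the 2 groups compared (0.0133) and with DESeq2 (1.22e-07).

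Interferon-stimulated genes had no call among 55 in edgeR, with DESeq2 or with limma-voom (7 had an unadjusted p under 0.05 in edgeR), although 47 had a positive fold change and the median was 0.43. Gbp9 and Gbp5, guanylate-binding proteins of the defence against intracellular microbes, had log2 fold changes of 1.22 (67 and 72 counts in CTRL, 200 and 122 in LPS+DHEA, adjusted p = 0.332) and 0.97 (94 and 98 against 231 and 143, adjusted p = 0.476). In both, LPS+DHEA replicate 1 was the higher of the pair. Irf7 and Bst2 were called without CTRL replicate 2, which raised their log2 fold changes from 0.68 to 2.58 and from 0.78 to 1.57 (adjusted p = 0.00714 and 0.0279). Among the 5 IFITM genes tested, a family that restricts virus entry, Ifitm2 rose from 7.81 and 8.86 CPM to 17.6 and 17.1 CPM (log2 fold change 1.05 with SE 0.13, adjusted p = 0.0113), and 4 had a positive fold change. Among 25 complement genes C1ra (chr6:124512405-124523443), which encodes a protease of the C1 complex, rose from 10.1 and 8.36 CPM to 22.3 and 21.3 CPM (log2 fold change 1.24 with SE 0.15, adjusted p = 0.0113). The list had 21 positive fold changes, a median of 0.23 and a summed level of 928 and 937 CPM in CTRL and 1305 and 1338 CPM in LPS+DHEA. Clu, which encodes the chaperone clusterin, stood at 654 and 642 CPM in CTRL and 829 and 905 CPM in LPS+DHEA without passing (log2 fold change 0.42, adjusted p = 0.251), and was called with DESeq2 (0.00949) and without either LPS+DHEA+Nb library (0.0266 and 0.0267). C3, the central complement component, stood at 15.6 and 17.5 CPM in CTRL and 112 and 104 CPM in LPS+DHEA (log2 fold change 2.7, 95% interval 1.42 to 3.98, adjusted p = 0.41), and Cfb, complement factor B, at 4.28 and 6.3 against 27.5 and 23.1 CPM (2.26, 1.44 to 3.07, adjusted p = 0.147). In both genes the groups were far apart, and both were called without either LPS+DHEA+Nb library, with only the 2 groups compared, with DESeq2 and with limma-voom (adjusted p = 2.62e-05 to 3.05e-05, 1.2e-05, 1.79e-06 and 0.025 for C3, and 0.0041 to 0.00432, 0.00427, 7.65e-17 and 0.0398 for Cfb). The LPS+DHEA+Nb libraries of C3 stood at 53 and 21.9 CPM. C3 and Cfb were singled out after these values were seen. Ifitm2 lost its call without CTRL replicate 1 or LPS+DHEA replicate 1 (0.96 to 1.03, adjusted p = 0.0592 to 0.0651), and C1ra without CTRL replicate 2 or LPS+DHEA replicate 1 (1.1 to 1.2, adjusted p = 0.0651 to 0.0676).

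Acta2, Ccn5, Col4a1 and Tgm2, genes of the contractile apparatus and the extracellular matrix, also rose. Acta2 (chr19:34241090-34255590), the smooth muscle actin of peritubular myoid cells and vessel walls, stood at 45.3 and 46.7 CPM in CTRL and 83.9 and 102 CPM in LPS+DHEA (log2 fold change 1.02 with SE 0.1, adjusted p = 0.00262). It was the only member of 13 myoid and smooth muscle markers to rise in edgeR or with limma-voom, while DESeq2 also called Myh11, Tpm2 and Cald1. The list had 11 positive fold changes, a median of 0.4 and a summed level of 527 and 515 CPM in CTRL and 598 and 626 CPM in LPS+DHEA. Ccn5, which encodes a matricellular protein, went from 3.56 and 3.11 CPM to 9.76 and 11.4 CPM (log2 fold change 1.66 with SE 0.2, adjusted p = 0.0101). Col4a1, a collagen chain of basement membranes, went from 22.5 and 25.6 CPM to 42.7 and 41.1 CPM (0.8, SE 0.12, adjusted p = 0.0331), and Tgm2, an enzyme that cross-links proteins, from 15.6 and 16.4 CPM to 27.9 and 25.1 CPM (0.73, SE 0.12, adjusted p = 0.0491). Timp1 and Col4a1 were the 2 of 25 matrix genes that rose, with a list median of 0.22. Of 14 fibroblast markers none was called in edgeR, with DESeq2 or with limma-voom (1 had an unadjusted p under 0.05 in edgeR). Pdgfra, a growth factor receptor of mesenchymal cells, stood at 11.6 and 13 against 17.4 and 17.6 CPM (log2 fold change 0.51, adjusted p = 0.529). Acta2 was called without each of the 8 libraries. Ccn5 lost its call without CTRL replicate 2 (1.56, adjusted p = 0.0641), Col4a1 without any 1 CTRL or LPS+DHEA library (0.7 to 0.89, adjusted p = 0.069 to 0.168) and Tgm2 without any 1 of these or of the LPS libraries (0.65 to 0.8, adjusted p = 0.0517 to 0.306).

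**Figure D3:**
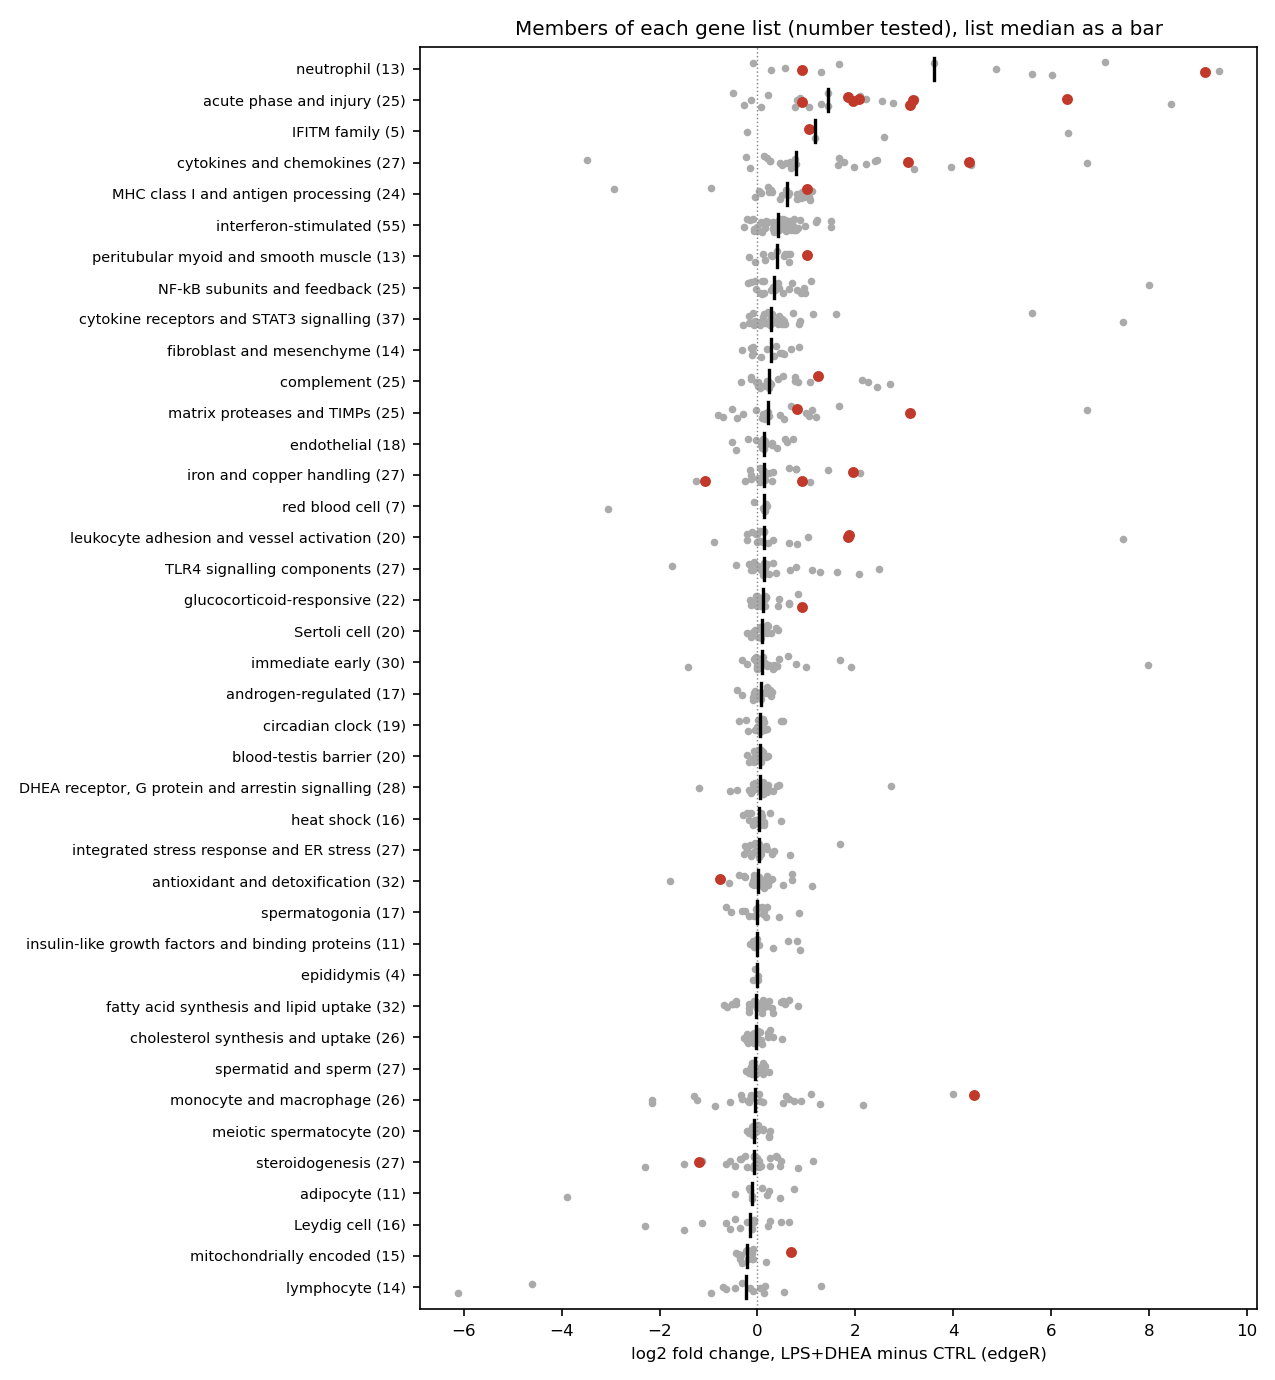
Log2 fold change of LPS+DHEA against CTRL (x axis) for the tested members of 40 gene lists (y axis, number tested in brackets), with called genes in red, other members in grey and the list median as a black bar. Neutrophil (3.61), acute phase (1.44) and IFITM (1.18) lists have the highest medians, and the place of members with 0 counts in CTRL, such as S100a8 and Il1rn, is set in part by the prior count in the fit.

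Each of the 4 genes that fell did so in both LPS+DHEA libraries. Ncoa4 (chr14:32159865-32179855), the receptor that takes ferritin to the lysosome and releases its iron, stood at 123 and 148 CPM in CTRL and 61.3 and 67.5 CPM in LPS+DHEA (log2 fold change -1.07 with SE 0.1, adjusted p = 0.00243). Ephx1 (chr1:180976210-181020904), a microsomal epoxide hydrolase, stood at 69.4 and 73 against 40.8 and 42.4 CPM (log2 fold change -0.77 with SE 0.08, adjusted p = 0.00432). For both, the lowest CTRL library lay well above the highest LPS+DHEA library, although the Ncoa4 CTRL libraries differed from each other, and the call held without each of the 8 libraries. Sult1e1 (chr5:87575969-87591594), the sulfotransferase that inactivates estrogens, stood at 8.36 and 10.9 against 4.3 and 4.07 CPM (log2 fold change -1.2 with SE 0.19, adjusted p = 0.0385). Its call ended without CTRL replicate 2 or either LPS+DHEA library (-1.25 to -1, adjusted p = 0.205 to 0.216). In edgeR 2 of 27 iron and copper genes rose (Cp and Lcn2) and Ncoa4 fell, of 32 antioxidant and detoxification genes only Ephx1 was called, and of 27 steroidogenesis genes only Sult1e1. Fth1, the ferritin heavy chain gene, stood at 121 and 109 against 176 and 183 CPM without passing (log2 fold change 0.64, adjusted p = 0.0677). It was called under 7 alternatives, among them DESeq2 (1.79e-05), no filter on low counts (0.0178) and only the 2 groups compared (0.0237). DESeq2 also called Gstm1, Gpx1 and Cyp1b1 among the antioxidant genes.

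No Leydig cell marker passed the test in edgeR, although Cyp17a1 and Hsd3b1 had lower values in LPS+DHEA. Cyp17a1 (chr19:46667165-46673172), which converts progestogens to androgens, stood at 106 and 155 CPM in CTRL and 27.7 and 25.3 CPM in LPS+DHEA. Its fitted log2 fold change of -2.3 (SE 0.51, 95% interval -3.68 to -0.91) had an adjusted p of 0.574. The spread between the libraries of LPS alone was wide (44.2 and 17.4 CPM). Hsd3b1, which makes progesterone and androstenedione, stood at 67.3 and 50.8 against 28.6 and 25.1 CPM (log2 fold change -1.14, 95% interval -1.92 to -0.35, adjusted p = 0.638). In both genes the groups do not overlap. With either LPS library left out, which left its fold change at -2.3, Cyp17a1 was called (adjusted p = 0.0252 and 0.0275), as was Hsd3b1, at -1.14 (0.0151 and 0.0132). With only the CTRL and LPS+DHEA libraries in the fit both were called (adjusted p = 0.0365 and 0.0283), while DESeq2 (0.00091 against 0.114) and limma-voom (0.0468 against 0.223) called Cyp17a1 and not Hsd3b1. Lhcgr, the receptor of luteinizing hormone, stood at 5.88 and 9.22 against 5.02 and 4.6 CPM (log2 fold change -0.65, 95% interval -1.14 to -0.16, adjusted p = 0.646). Star, which carries cholesterol into mitochondria, stood at 25.9 and 33.1 against 14.5 and 25.2 CPM (-0.57, 95% interval -1.56 to 0.41, adjusted p = 0.961). Insl3, a Leydig cell hormone, stood at 552 and 597 against 503 and 484 CPM (-0.22, 95% interval -0.37 to -0.07, adjusted p = 0.574). In Lhcgr, Star and Insl3 too the groups do not overlap, narrowly so in Star. Of 16 Leydig cell markers 8 had an unadjusted p under 0.05, 4 had a positive fold change and the median was -0.16. Both LPS+DHEA libraries lay below both CTRL libraries in 7 (43.8%), beside 16.6% of all genes tested. Members of this list in the other direction were Vcam1 (70.5 and 52 against 102 and 88.7 CPM, adjusted p = 0.275) and Fabp3 (82 and 61.2 against 101 and 98.6 CPM, adjusted p = 0.438). DESeq2 called both (adjusted p = 0.00128 and 0.0457), and Vcam1 was called without CTRL replicate 1 (0.0383).

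**Figure D4:**
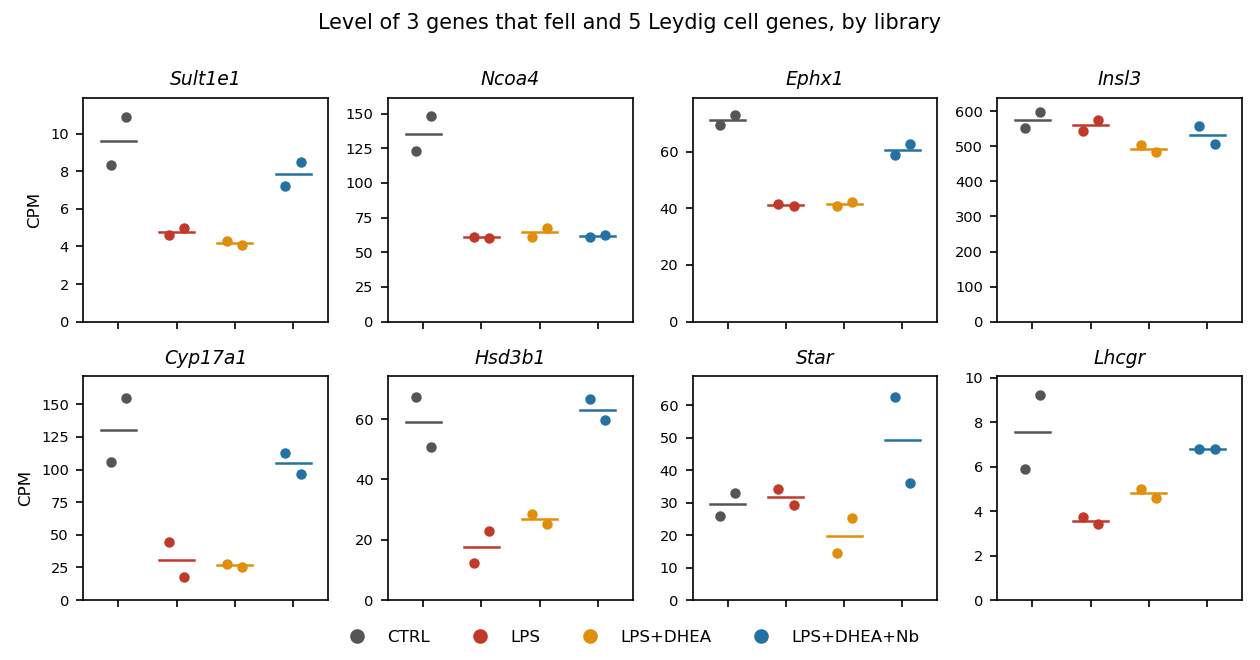
Level in CPM (y axis, from 0, own scale in each panel) of 3 genes called lower in LPS+DHEA than in CTRL (Sult1e1, Ncoa4, Ephx1) and 5 Leydig cell genes that were not called, with each library as a point and the group mean as a line, 2 libraries per group. Cyp17a1 stands at 106 and 155 CPM in CTRL and 27.7 and 25.3 CPM in LPS+DHEA, while Insl3 spans 484 to 597 CPM over the same 4 libraries.

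Adgrg2, an adhesion G protein-coupled receptor for which DHEA is a reported ligand, had 38 and 61 counts in CTRL against 4 and 38 in LPS+DHEA. The groups overlap, the LPS+DHEA libraries differ widely, and no difference was detectable with these libraries (log2 fold change -1.19, 95% interval -3.15 to 0.76, adjusted p = 0.962). None of 28 genes of DHEA receptors, G proteins and arrestins was called in edgeR, with DESeq2 or with limma-voom (1 had an unadjusted p under 0.05 in edgeR), and the median was 0.05. The same 3 tools called none of 17 androgen-regulated genes (2 unadjusted, median 0.07) and none of 26 cholesterol genes (0 unadjusted, median -0.03). Among 32 fatty acid genes none passed in edgeR (7 unadjusted, median -0.02) or limma-voom, and DESeq2 called 3. Fads2, a desaturase of polyunsaturated fatty acids, stood at 103 and 138 against 76.2 and 74 CPM (log2 fold change -0.68, adjusted p = 0.174), and was called with DESeq2 (9.65e-05) and without CTRL replicate 1 (0.0201). No gene was called in edgeR or limma-voom among 30 immediate early, 19 circadian clock, 27 integrated stress response, 16 heat shock and 11 insulin-like growth factor genes, of which 4, 1, 2, 2 and 3 had an unadjusted p under 0.05 in edgeR. DESeq2 called Atf3, a stress-induced transcription factor, in the first list (0 counts in both CTRL libraries against 60 and 4, adjusted p = 0.0186) and Igfbp4, an insulin-like growth factor binding protein, in the last (14.1 and 16.1 against 24.6 and 21.7 CPM, adjusted p = 0.0151). Lcn2 was the only 1 of 22 glucocorticoid-responsive genes that was called.

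The 3 germ cell lists held no call in edgeR, with DESeq2 or with limma-voom, and at an unadjusted p under 0.05 edgeR gave 2 spermatid and sperm, 2 meiotic and 1 spermatogonial gene. Of 27 spermatid and sperm genes 11 had a positive fold change and the median was -0.04. Both LPS+DHEA libraries lay below both CTRL libraries in 10 (37.0%), beside 16.6% of all genes tested. Tnp1 and Prm1 were both at a log2 fold change of -0.14 (95% intervals -0.26 to -0.02 and -0.3 to 0.01, adjusted p = 0.796 and 0.909). Of 20 meiotic genes 6 were positive (median -0.07), and Piwil1, a partner of germline small RNAs, stood at 367 and 422 against 489 and 442 CPM (adjusted p = 0.668). The 17 spermatogonial genes tested had a median of 0. Of 20 Sertoli cell genes none was called in edgeR (2 had an unadjusted p under 0.05) or limma-voom, DESeq2 called Clu, and 15 were positive (median 0.09), with a summed level of 1545 and 1522 CPM in CTRL and 1745 and 1835 CPM in LPS+DHEA, much of it Clu. The 20 blood-testis barrier genes had 13 positive fold changes and a median of 0.05. Markers of adipocytes (11 genes) and red blood cells (7 genes), which would come from attached fat and blood, held no call in edgeR or limma-voom, with 1 and 0 genes at an unadjusted p under 0.05 in edgeR. Car3, a carbonic anhydrase of adipocytes, had 135 and 288 counts in CTRL against 19 and 9 in LPS+DHEA (log2 fold change -3.89, 95% interval -7.03 to -0.75, adjusted p = 0.759). It was called with DESeq2 (0.000439) and with only the 2 groups compared (0.0283), while the summed level of the adipocyte list was 916 and 879.9 CPM in CTRL and 792 and 848 CPM in LPS+DHEA.

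Several called transcripts have no settled place among these groups. Olfr273 (chr4:52852154-52859236), named as an olfactory receptor gene, was at 4 and 2 counts in CTRL against 164 and 140 in LPS+DHEA. The summed counts differed 51.3-fold, with an exact 95% interval of 23.3 to 141 that covers counting error only (log2 fold change 5.62 with SE 0.52, adjusted p = 0.00243). Gm10352 on chromosome Y had 141 and 90 counts in the LPS+DHEA libraries and 0 in the other 6, at least 38.8-fold higher than CTRL (adjusted p = 0.0331). Gm15142, annotated as a pseudogene on chromosome X, had 64 and 54 counts in CTRL and 0 in both LPS+DHEA libraries, at least 19.4-fold lower (adjusted p = 0.0233). All 3 are all-or-nearly-none patterns, and all 3 calls ended with limma-voom (for Olfr273 at a log2 fold change of 5.53, adjusted p = 0.406). Olfr273 was called without each of the 8 libraries, while Gm10352 and Gm15142 lost their calls without any 1 CTRL or LPS+DHEA library (adjusted p = 0.076 to 0.421 and 0.0509 to 0.0822). Multi-copy families of chromosomes X and Y and of olfactory receptors can share reads, and the sources used here do not say how such reads were assigned. Kxd1, a subunit of a complex that positions lysosomes, went from 47.9 and 57.9 CPM to 97.2 and 88.1 CPM (log2 fold change 0.81 with SE 0.1, adjusted p = 0.0115). Its annotated exons overlap those of other genes, so its value is uncertain, and it lost its call without LPS+DHEA replicate 1 (0.73, adjusted p = 0.0841).

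The neighbours Tmem176a and Tmem176b, membrane proteins related to the MS4A family, rose from 17.7 and 18.1 to 30.8 and 31.8 CPM (log2 fold change 0.8 with SE 0.1, adjusted p = 0.0115) and from 27.7 and 25.5 to 52.8 and 55.6 CPM (1.03, SE 0.1, adjusted p = 0.00262). They overlap on opposite strands, and the sources used here do not say whether the counting used strand. The nucleolar gene Nol8 went from 171 and 158 to 221 and 248 CPM (0.52, SE 0.08, adjusted p = 0.0331), and Carnmt1, which methylates carnosine, from 24.4 and 24.2 to 36.4 and 40.5 CPM (0.66, SE 0.1, adjusted p = 0.0361). The lincRNA 4933406F09Rik (0.87, adjusted p = 0.0289) and the antisense transcript Gm20633 (0.53, adjusted p = 0.0331), which overlaps the histone gene Hist2h2aa1, also rose. mt-Rnr1, the small ribosomal RNA of mitochondria, went from 65.3 and 54 to 92.9 and 99.3 CPM (0.69, SE 0.11, adjusted p = 0.0385), while 13 of the 15 mitochondrially encoded genes had a negative fold change and the list's median was -0.22. Tmem176b alone of these was called without each of the 8 libraries. Tmem176a, Carnmt1 and 4933406F09Rik lost their calls without any 1 CTRL or LPS+DHEA library (adjusted p = 0.0546 to 0.0639, 0.0822 to 0.171 and 0.0534 to 0.168). Nol8 lost its call without either CTRL library or LPS+DHEA replicate 2 (adjusted p = 0.0666 to 0.192), Gm20633 without either CTRL library or LPS+DHEA replicate 1 (0.0563 to 0.205) and mt-Rnr1 without CTRL replicate 2 or either LPS+DHEA library (0.134 to 0.21).

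The size of these responses was set beside LPS alone. The difference between the change from CTRL in LPS+DHEA and that in LPS equals LPS+DHEA minus LPS, a comparison that shares the LPS+DHEA libraries with the one described here. Of the 40 called genes none passed it in edgeR: 39 had an adjusted p of 1 and Gm10352 had 0.135. At an unadjusted p under 0.05 edgeR gave 12 of the 40, beside 927 of all 26414 genes tested, where 1321 would be expected with no difference. DESeq2 called Gm10352 and limma-voom called none. A p that misses the threshold does not show that the responses were of equal size, and the intervals differ by gene. For Acta2 the log2 difference was -0.08 (95% interval -0.3 to 0.14), for Ncoa4 0.08 (-0.13 to 0.3) and for Ephx1 0.01 (-0.17 to 0.19), so these intervals lie within 0.3 log2 units of 0. For Lrg1 it was -0.67 (-1.04 to -0.31), with 31.5 and 22.2 CPM in LPS and 17.4 and 16.3 CPM in LPS+DHEA. Cp was at -0.42 (-0.67 to -0.18; 43.9 and 45.7 CPM in LPS), Lcn2 at -0.43 (-0.71 to -0.16; 327 and 314 CPM in LPS) and Serpina3n at -0.68 (-1.23 to -0.12; 74.8 and 92.2 CPM in LPS). The unadjusted intervals of these 4 acute phase genes lie below 0. Those of Saa3 (-0.52, -1.12 to 0.08), Saa1 (-0.36, -1.01 to 0.29) and Timp1 (-0.35, -0.85 to 0.16) include 0. The unadjusted interval also lies below 0 in 5 of the other 29 genes that rose, which are Col4a1 (-0.44, -0.7 to -0.19), Ccn5 (-0.5, -0.91 to -0.09), Tgm2 (-0.38, -0.64 to -0.12), Ifitm2 (-0.36, -0.64 to -0.08) and C1ra (-0.33), and above 0 in 3, which are Carnmt1, Gm20633 and Gm10352. Both LPS+DHEA libraries lay below both LPS libraries in 18 of the 36 genes. The share of all genes tested with that order was not counted, so this count has no baseline. The mean was below that of LPS in 27 of the 36. Over all genes tested, 50.7% of the fold changes of LPS+DHEA against LPS were positive. No conclusion is drawn from either count. For genes of few counts such as Marco (0.13, -0.84 to 1.09) and Fpr1 (0.71, -0.82 to 2.25) the intervals are wide in both directions.

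**Figure D5:**
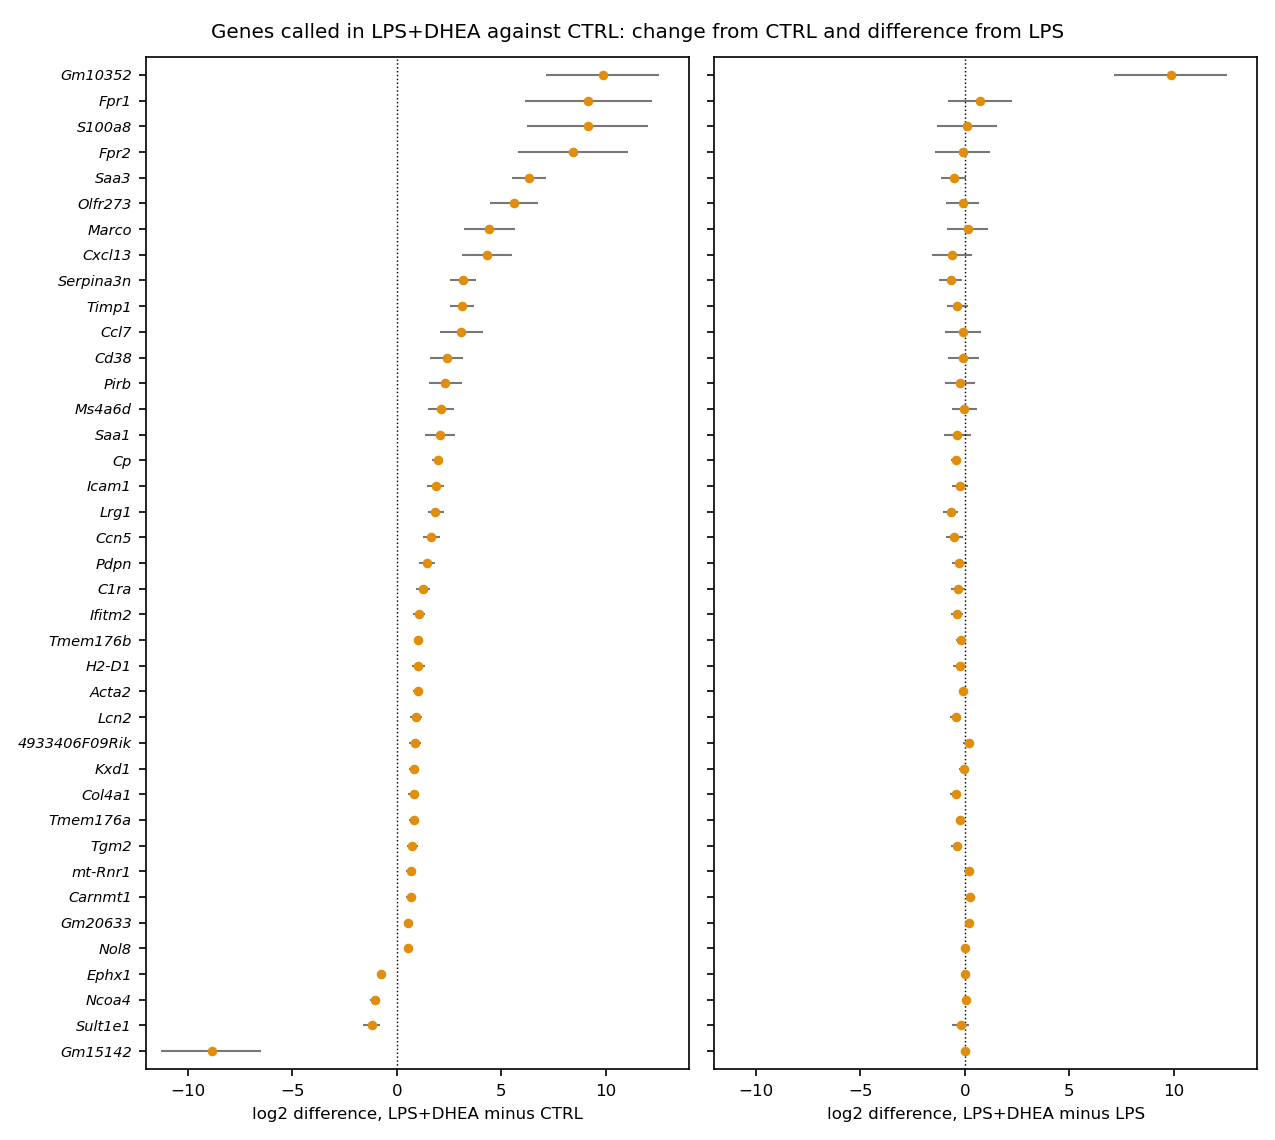
For 39 of the 40 genes called in LPS+DHEA against CTRL (y axis), the fitted log2 change from CTRL (left) and the log2 difference from LPS (right), each as a point with its 95% interval (x axes). The right-hand interval lies below 0 in 9 of the 36 genes that rose, such as Lrg1 (-1.04 to -0.31) and Col4a1 (-0.7 to -0.19), while those of Saa3, Saa1 and Timp1 include 0, those of Acta2, Ncoa4 and Ephx1 include 0, Gm10352 stands apart at 9.86, and Gm15142, with 0 counts in both groups, has no interval.

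Between LPS+DHEA and LPS, 5 genes differed (0.0189% of the genes tested), and none of them was called in LPS+DHEA against CTRL. Scd2, a stearoyl-CoA desaturase, had a log2 fold change from CTRL of -0.07 (95% interval -0.26 to 0.12), with 55.7 and 47.8 CPM in CTRL and 49.9 and 48.6 CPM in LPS+DHEA. Nupr1l, a relative of the stress regulator Nupr1, had -0.01 (-0.19 to 0.18), with 171 and 182 against 176 and 175 CPM. For these genes the LPS+DHEA level was within the spread of CTRL. Myo5a, an organelle motor, had -0.19 (-0.45 to 0.06), while Arrb1, which encodes a beta-arrestin, had 0.44 (0.12 to 0.75, adjusted p = 0.608) and the Wnt pathway gene Apc 0.48 (0.13 to 0.82, adjusted p = 0.611). Against LPS+DHEA+Nb, a comparison that also shares the LPS+DHEA libraries, 23 genes differed (0.0871%). Cp stood at 14.3 and 12.2 CPM and Acta2 at 51.1 and 53 CPM in LPS+DHEA+Nb, both below the LPS+DHEA libraries and above the CTRL libraries.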

How the data were processed

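Total RNA of mouse testis was sequenced from KAPA Stranded RNA-Seq libraries, per the labels' protocols. The submitters' processing notes list GRCm38, HISAT and featureCounts 1.5.0-p3, with no role or order. The deposited values were taken as estimated counts per Ensembl gene, not scaled for depth. They are whole numbers, but among values from 1 to 40 a share of 33.5% were multiples of 4, beside 25.0% from 1000 to 9999. Tests meant for counts were kept, with no rounding. GENCODE M21 gave symbols and 1-based GRCm38 positions for 55240 of 55421 gene identifiers.

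In edgeR 4.0.16 (R 4.3.3), filterByExpr (minimum count 10, minimum total 15) kept 26414 genes. Libraries were scaled by TMM (factors 0.985 to 1.015), and all 8 libraries entered a robust quasi-likelihood fit of 4 group means, which leaves 4 residual degrees of freedom (common biological coefficient of variation 0.231). P-values were adjusted by Benjamini-Hochberg over all genes of a comparison and called under 0.05. The SE is the log2 fold change divided by the square root of F, and 95% intervals are unadjusted. Low counts in 1 group were set against a floor of 3 per library, which covers counting error only. The code was tested on simulated data.

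The members, the 40 gene lists (25 of pathways, 15 of cell types) and the tests were chosen with earlier results of these data known. Named genes were up to 12 called genes per direction by size (at least 1 CPM in the higher group), up to 4 called members of each list (or its 2 lowest p-values), and 28 genes reported in any case. The results of some genes are not reported here. Other called genes and list members were added after their values were seen. The deposited libraries carry replicate numbers and were treated as unpaired. Over the genes tested, deviations of same-numbered libraries had correlations of -0.033 to 0.031. Such values cannot exclude a pairing that affects some genes. Alternatives were other scalings and filters, DESeq2 1.42.0, limma-voom (limma 3.58.1), only the 2 groups compared, counts divided by 4, the replicate block, other thresholds and each library left out in turn.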

Additional observations from a re-analysis of the deposited data

Results flagged for a closer look

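Among the genes described, 18 tests of a difference between the groups' changes from CTRL passed an adjusted p under 0.05 in edgeR. Against LPS+DHEA+Nb, with the change in LPS+DHEA minus that in LPS+DHEA+Nb on the log2 scale, Cp differed by 1.34 (14.3 and 12.2 CPM in LPS+DHEA+Nb, adjusted p = 0.00264), Lrg1 by 1.4 (6.42 and 6.31 CPM, adjusted p = 0.0172), Lcn2 by 0.96 (139.9 and 104 CPM, adjusted p = 0.0365) and Icam1 by 1.32 (2.85 and 2.7 CPM, adjusted p = 0.0311). Acta2 differed by 0.84 (51.1 and 53 CPM, adjusted p = 0.0172) and Ifitm2 by 0.95 (9.49 and 8.5 CPM, adjusted p = 0.0311). In all 6 genes both LPS+DHEA+Nb libraries lay below both LPS+DHEA libraries. Ephx1 differed by -0.54 (58.7 and 62.6 CPM, adjusted p = 0.0491), while Ncoa4, at 60.7 and 62.3 CPM in LPS+DHEA+Nb, had a difference of 0.07 (adjusted p = 1).

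Transcripts of uncertain assignment showed the same test result. Kxd1 differed by 0.94 (46.9 and 50 CPM in LPS+DHEA+Nb, adjusted p = 0.00761) and Olfr273 by 5.06 (5 and 4 counts, adjusted p = 0.00545). Gm15142 had 69 and 66 counts in LPS+DHEA+Nb and 0 in LPS+DHEA (fitted difference -9.07, adjusted p = 0.0302), and Gm10352 had 0 counts in LPS+DHEA+Nb (fitted difference 9.86, adjusted p = 0.0446), both sizes depending on the prior count of the fit.

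Of genes not called against CTRL, Apc differed from LPS+DHEA+Nb by -1.26 (24.9 and 23.8 CPM there, adjusted p = 0.0186) and Myo5a by -0.83 (20.1 and 21.9 CPM, adjusted p = 0.0322). Against LPS alone, Scd2 differed by -1.74 (168 and 162 CPM in LPS, adjusted p = 2.17e-05), Nupr1l by 1.56 (63.6 and 55.2 CPM, adjusted p = 2.78e-05), Arrb1 by 1.32 (11.1 and 8.52 CPM, adjusted p = 0.0153), Apc by -1.3 (26.4 and 23.8 CPM, adjusted p = 0.0275) and Myo5a by -1.07 (24.7 and 24.8 CPM, adjusted p = 0.0153). These comparisons share the LPS+DHEA libraries with the one against CTRL. In all, 23 genes (0.0871%) differed between LPS+DHEA and LPS+DHEA+Nb.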

How the results depend on the processing

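Of the 40 genes called in LPS+DHEA against CTRL, Timp1, Cp, Tmem176b, Acta2, Lrg1, Icam1, Ephx1, Saa3 and Ncoa4 were called under each of the 17 alternatives that kept the thresholds. All 40 were called with DESeq2, with its size factors in edgeR and with no filter. With library size alone 39 were, with limma-voom 19, with only the 2 groups compared 27 and with counts divided by 4 33. A minimum of 1 CPM removed Fpr1 and Fpr2 from the test. None of the 40 changed sign. The count of 36 higher genes became 64 with no filter, 123 with DESeq2 and 19 with limma-voom, and 14 to 56 with a library left out. The count of 4 lower genes became 16, 50 and, with only the 2 groups compared, 20, then 10 at an adjusted p under 0.10 and 6 to 20 with a library left out. Against LPS the count of 5 became 10 with no filter, 37 with DESeq2, 20 with only the 2 groups compared and 10 to 24 with a library left out. Against LPS+DHEA+Nb the count of 23 became 42, 107 and 40 in the same order, 11 with limma-voom, 13 with an absolute log2 fold change of at least 1 and 16 to 64 with a library left out. The cause was not tested. With an arm of 1 library, that library was assumed to vary like the other groups. Whether the replicate numbers pair the libraries cannot be told from these data. The replicate block gave 24 higher and 5 lower genes, with 23 of the 40 calls kept. With 2 libraries per group and 4 residual degrees of freedom, moderate changes of genes with few counts can be missed.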
